A study of Mus musculus with 6 samples.

Results

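Lipid-associated macrophages are macrophages that take up and digest lipid-rich debris, and they carry a recurrent programme of surface, secreted and lipid-handling genes. Of the 60832 genes in the table, 10 genes of this programme were examined, namely Trem2, Tyrobp, Cd9, Gpnmb, Spp1, Lgals3, Lpl, Fabp4, Fabp5 and Plin2, each taken as the row with exactly that symbol. All 10 passed the filter on low counts, which left 15474 genes for testing. The libraries came from primary liver sinusoidal endothelial cells (LSECs) of mice carrying liver xenografts of the human colorectal cancer line HCT116, as a model of colorectal cancer liver metastasis (CRCLM). There were 3 libraries from bevacizumab-sensitive and 3 from bevacizumab-resistant xenografts, bevacizumab being an antibody against VEGFA. Resistance was brought about by continued dosing of xenografts that had been sensitive.

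The hosts were male BALB/c-Nu mice, given in the study's methods as 4 to 6 weeks old, with tumor cells injected into the liver. These mice lack a thymus and so most T cells, while their macrophages are present. The vehicle group of the study received IgG, and the labels do not state what the sensitive group received. LSECs were drawn from the dissociated tissue with anti-CD146 beads, and the labels record 24 h of culture for all 6 libraries. Each library is called by its group and its number in the labels. The labels do not say whether the 3 libraries of a group came from separate mice, so the p-values measure the spread between these libraries, which may in part be technical.

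In this programme TREM2 binds lipids and lipoproteins at the cell surface and signals through the adaptor TYROBP, which carries the activating motif that TREM2 itself lacks. Osteopontin, galectin-3 and GPNMB are products of macrophages that ingest debris, while LPL, the fatty acid-binding proteins and perilipin 2 release, carry and store fatty acids. In liver, such macrophages are known from fatty liver disease and fibrotic scars, and Kupffer cells are the resident macrophages of the sinusoids.

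None of the 10 genes passed the test between resistant and sensitive libraries, and for all 10 the groups overlapped. The clearest pattern was inside the resistant group. Trem2, Gpnmb, Spp1, Lpl and Fabp5 were each lowest of the 6 libraries in resistant replicate 1 and highest in resistant replicate 2, an order found in 222 of the 15474 tested genes, or 1.43%, by CPM and in 333, or 2.15%, after scaling by TMM (trimmed mean of M-values) factors. Fabp4 had the opposite order within the resistant group, with its lowest level in resistant replicate 2.

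**Figure D1:**
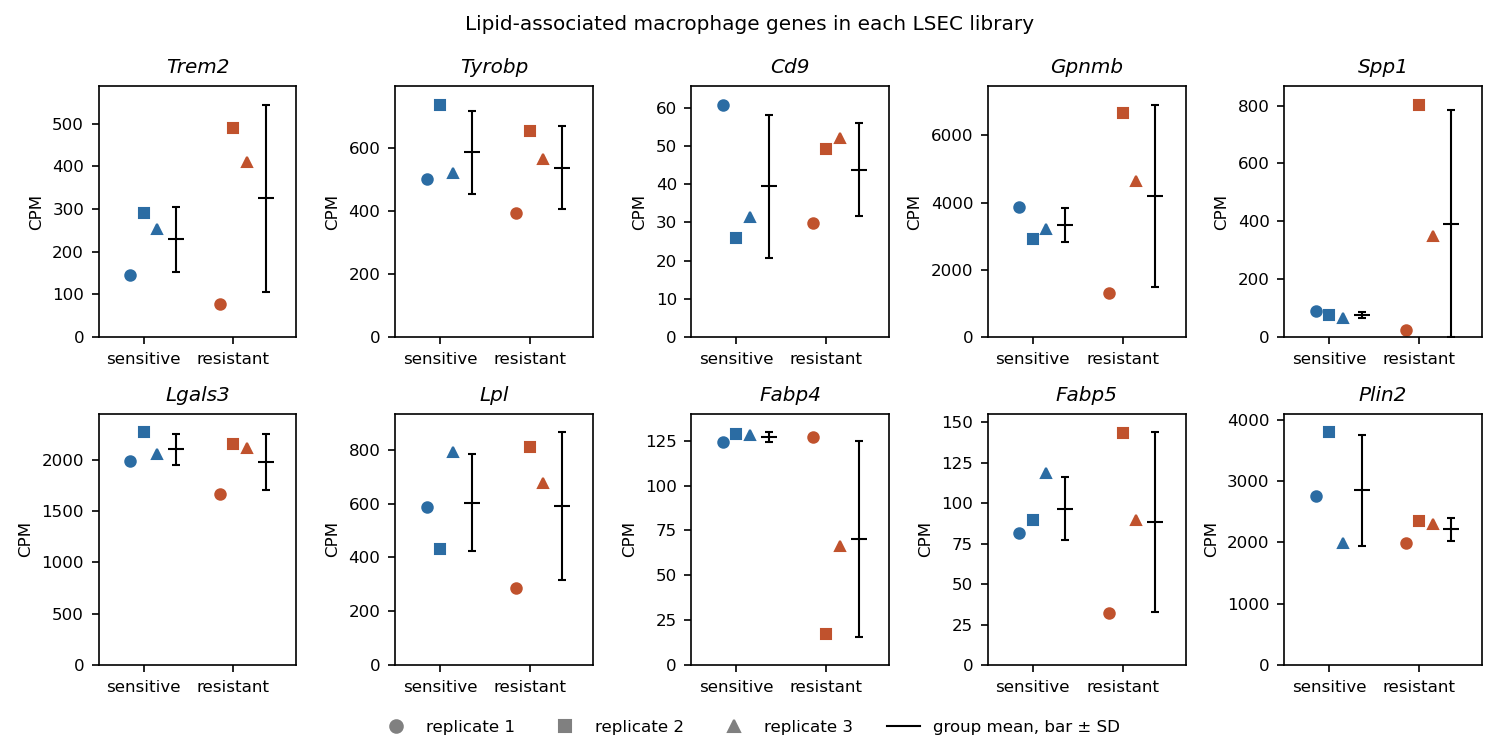
CPM (read counts scaled to the library total, linear axes from 0) of the 10 genes in each library, with sensitive libraries in blue, resistant libraries in red, a marker shape for each replicate number and a black bar for the group mean ± SD (n = 3). For Trem2, Gpnmb and Spp1 the red circle (resistant replicate 1) lies below and the red square (resistant replicate 2) above all other libraries, and for Fabp4 the red square, at 17.3 CPM, is the lowest point.

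Total counts ranged from 17599326 to 20726684 per library, so that a count of 3 corresponded to 0.145 to 0.17 CPM, and the lowest count of any of the 10 genes was 342. Sensitive replicate 2 stood apart from the rest: across genes, Pearson's r of log2 CPM was 0.86 to 0.901 for its 5 pairs and 0.954 to 0.974 for the other 10 pairs. The defining markers of the labelled cell type were present at a low level. The summed level of 7 LSEC markers was 58.4 to 436 CPM and that of 10 pan-endothelial markers 46.1 to 432 CPM, against 12571 to 21007 CPM for 13 macrophage markers and 11374 to 24509 CPM for 6 Kupffer cell markers. Mcam, which encodes CD146, the target of the isolation beads, reached at most 3.84 CPM. In bulk libraries such as these, fewer cells of a type and less RNA per cell cannot be told apart.

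The 250 bases before the RefSeq start site (build GRCm38.p6, 5′ to 3′ on the strand of the gene) are shown for Trem2, Gpnmb and Spp1, the surface and secreted genes with the widest spread among the resistant libraries. Capitals mark matches on either strand to PU.1 (AGGAAGT), AP-1 (TGANTCA, N being any base), the E-box read by the MiT factors (CACGTG) and the half-site of nuclear receptors (AGGTCA). PU.1 is the lineage factor of macrophages, and MITF, TFEB and TFE3 are regulators of lysosomal genes.
Trem2, chr17:48346151-48346400, plus strand: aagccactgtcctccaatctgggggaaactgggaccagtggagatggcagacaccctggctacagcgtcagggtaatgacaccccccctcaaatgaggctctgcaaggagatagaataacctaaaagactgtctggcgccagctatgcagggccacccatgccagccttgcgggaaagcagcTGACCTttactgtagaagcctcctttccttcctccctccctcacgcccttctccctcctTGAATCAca
Gpnmb, chr6:49036268-49036517, plus strand: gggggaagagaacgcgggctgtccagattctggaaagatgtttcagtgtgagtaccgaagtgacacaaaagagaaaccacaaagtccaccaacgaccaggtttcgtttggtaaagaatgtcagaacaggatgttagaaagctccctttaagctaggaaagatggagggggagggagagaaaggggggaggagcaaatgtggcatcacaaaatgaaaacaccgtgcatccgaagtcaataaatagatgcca
Spp1, chr5:104434861-104435110, plus strand: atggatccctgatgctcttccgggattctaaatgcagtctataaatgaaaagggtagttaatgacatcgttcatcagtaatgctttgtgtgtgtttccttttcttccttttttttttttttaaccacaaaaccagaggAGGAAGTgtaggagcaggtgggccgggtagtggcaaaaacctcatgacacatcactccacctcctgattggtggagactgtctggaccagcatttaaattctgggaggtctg

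The Trem2 window held an AP-1 match on the plus strand 9 to 3 bases before the start and a nuclear receptor half-site on the minus strand 68 to 63 bases before it. The Spp1 window held a PU.1 match on the plus strand 112 to 106 bases before the start. The Gpnmb window held none of the 4 motifs. Of 32851 windows of the same length, 7.69% held the PU.1 letters, 6.75% the AP-1 letters, 6.02% the E-box and 14.0% the half-site, so single matches of this kind were frequent. RefSeq promoter entries were found for 6 of the 10 genes. Of the other three, Plin2 had a half-site match on the minus strand 218 to 213 bases before its start, and Cd9 and Lgals3 had no match. Fabp4, Fabp5, Lpl and Tyrobp had no entry in the table.

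Levels of different genes were compared as FPKM, which divides by gene length. By mean FPKM over the 6 libraries the order was Lgals3 (1097), Tyrobp (844), Plin2 (721), Gpnmb (579), Spp1 (141), Lpl (57.0), Trem2 (56.1), Fabp5 (25.9), Fabp4 (21.96) and Cd9 (20.3). Neighbours in this order had overlapping ranges over the libraries. Lgals3 spanned 894 to 1220 FPKM and Tyrobp 593 to 1108 FPKM. Spp1 spanned 13.7 to 488 FPKM and so covered the whole range of Lpl, Trem2 and Fabp5 apart from the lowest Fabp5 value of 8.97 FPKM. In raw reads, Gpnmb, Plin2 and Lgals3 together made up 79.0% to 84.5% of the summed CPM of the 10 genes.

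Trem2 (GRCm38, chr17:48346401-48354147, plus strand), the lipid-sensing receptor, had 144.8, 290.5 and 252.8 CPM in sensitive replicates 1 to 3 and 77.1, 489.1 and 410.9 CPM in resistant replicates 1 to 3. Resistant replicates 2 and 3 lay above every sensitive library and resistant replicate 1 below every one, so the resistant group enclosed the sensitive group. The means were 229 ± 75.6 CPM in the sensitive and 326 ± 219 CPM in the resistant group (SD, n = 3 each). The log2 fold change, resistant over sensitive, was 0.43 (SE 0.67, 95% interval -1.14 to 2.00), with an adjusted p of 0.940 (quasi-likelihood test of edgeR, Benjamini-Hochberg method). Without resistant replicate 1 it was 0.92, without sensitive replicate 2 0.73, without sensitive replicate 1 0.16, without resistant replicate 3 0.26 and without resistant replicate 2 0.003.

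Tyrobp (chr7:30413760-30417585, plus strand), the adaptor through which TREM2 and other myeloid receptors signal, varied much less. It had 501.3, 739.1 and 521.5 CPM in the sensitive and 395.2, 654.6 and 566.8 CPM in the resistant libraries. Sensitive replicate 2 was the highest and resistant replicate 1 the lowest, and between them resistant replicates 2 and 3 lay above sensitive replicates 1 and 3. The log2 fold change was -0.21 (SE 0.33, 95% interval -0.98 to 0.56; edgeR adjusted p = 0.940), and its sign was the opposite without sensitive replicate 2 (0.086) or resistant replicate 1 (0.007). Trem2 was 3.90%, 5.30% and 6.54% of Tyrobp in FPKM in the sensitive libraries and 2.63%, 10.1% and 9.78% in the resistant libraries. Receptor and adaptor therefore stood in unequal proportion among the libraries, and the Trem2 share again enclosed the sensitive group from both sides.

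Gpnmb (chr6:49036546-49070929, plus strand) encodes a transmembrane glycoprotein of lysosomes and the cell surface and contributed the most reads of the 10 genes in all libraries but sensitive replicate 2 and resistant replicate 1, where Plin2 did. Its levels were 3879, 2913 and 3205 CPM in the sensitive and 1311, 6663 and 4651 CPM in the resistant libraries. The 3 sensitive libraries lay close together, with resistant replicates 2 and 3 above them and resistant replicate 1 below. The means were 3332 ± 495 and 4208 ± 2703 CPM, the log2 fold change 0.30 (SE 0.55, 95% interval -0.999 to 1.61; edgeR adjusted p = 0.941). Without resistant replicate 2 the fold change had the opposite sign, -0.21, and without resistant replicate 1 it was 0.75 (unadjusted p = 0.0432, adjusted p = 0.973, edgeR). Cd9 (chr6:125460266-125494791, minus strand), a tetraspanin of membrane microdomains, had 60.8, 26.0 and 31.5 CPM in the sensitive and 29.8, 49.3 and 52.1 CPM in the resistant libraries. Here sensitive replicate 1 was highest and sensitive replicate 2 lowest, the groups were intermixed, and the log2 fold change was 0.13 (SE 0.35, 95% interval -0.71 to 0.96; edgeR adjusted p = 0.955). Its sign was the opposite without sensitive replicate 2 (-0.05), and it was nearly 0 without sensitive replicate 3 (-0.0001), resistant replicate 2 (0.017) or resistant replicate 3 (-0.0076) and larger without sensitive replicate 1 (0.50) or resistant replicate 1 (0.37). An antisense gene, Gm28809, overlaps Cd9 and had 5 to 74 counts; the strand setting of the counting was not given in the sources used here, so reads of the pair may not be fully separated.

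Spp1 (chr5:104435118-104441050, plus strand) encodes osteopontin, a secreted phosphoprotein that binds integrins and CD44. It had 86.8, 74.3 and 63.9 CPM in the sensitive libraries, from 1705, 1308 and 1313 counts. In the resistant libraries it had 22.5, 804.0 and 346.8 CPM, from 467, 15896 and 6668 counts. The sensitive libraries lay within 1.36-fold of each other, and the resistant libraries spanned 35.7-fold, on both sides of the sensitive group. As wide a span within the resistant group was found in 3 of the 5795 tested genes with an average log2 CPM of at least 5 (0.0518%), Spp1 included. The group means were 75.0 ± 11.5 and 391 ± 393 CPM. The log2 fold change of 2.35 (SE 1.03, 95% interval -0.06 to 4.77) was the largest in size of the 10 genes and had an unadjusted p of 0.0549 and an adjusted p of 0.940 in edgeR's quasi-likelihood test.

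The Spp1 difference moved with single libraries and with the method. Without resistant replicate 2 its log2 fold change was 1.25, and without resistant replicate 1 it was 2.92, with an unadjusted p of 0.000401 and an adjusted p of 0.764 (edgeR). DESeq2's Wald test on all 6 libraries gave an unadjusted p of 0.00596 and an adjusted p of 0.539, the lowest adjusted p of any of the 10 genes under any setting. On the same libraries the log2 fold change was 1.25 in limma-voom (unadjusted p = 0.330) and 1.315 in limma on log2(FPKM + 1) (unadjusted p = 0.287). In edgeR it was 1.53 with a block for the replicate number (unadjusted p = 0.255) and 2.44 without the filter on low counts (unadjusted p = 0.129). Resistant replicate 2, where Spp1 was highest, also had the highest summed level of 6 stellate cell and fibroblast markers. It was 164 CPM there, against 40.7 to 79.8 CPM in the other 5 libraries. The sum of 5 hepatocyte markers was highest in the same library, at 120 CPM. The sum of 7 cholangiocyte and epithelial markers was 141, 260 and 11.5 CPM in the sensitive and 80.5, 96.6 and 258 CPM in the resistant libraries. The part of these lists in the result was not tested. Of the 6 osteoclast markers, another cell type rich in Spp1, Dcstamp had a count of 0 in every library and Calcr and Oscar had at most 3 counts. The summed osteoclast list was highest in sensitive replicate 3 (1064 CPM) and was 483 CPM in resistant replicate 2.

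Lgals3 (chr14:47367751-47386160, plus strand), which encodes the galactose-binding lectin galectin-3, was the most even of the 10 genes over the 6 libraries. Its levels were 1984, 2267 and 2052 CPM in the sensitive and 1662, 2157 and 2110 CPM in the resistant libraries. Resistant replicate 1 was lowest, as it was for Trem2, Gpnmb and Spp1, but by a far smaller margin. The log2 fold change was -0.16 (SE 0.25, 95% interval -0.76 to 0.44; edgeR adjusted p = 0.940), and it was -0.015 without resistant replicate 1 and -0.024 without sensitive replicate 2.

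Lpl (chr8:68880491-68907448, plus strand), the lipase that frees fatty acids from triglyceride-rich lipoproteins, had 586, 431 and 792 CPM in the sensitive and 285, 811 and 678 CPM in the resistant libraries. Fabp5 (chr3:10012548-10016607, plus strand), a fatty acid-binding protein common in macrophages, had 81.6, 89.8 and 118.7 CPM in the sensitive and 31.99, 143.2 and 89.6 CPM in the resistant libraries. Both genes were lowest in resistant replicate 1 and highest in resistant replicate 2, and for both the third resistant library lay within the range of the sensitive group. The log2 fold changes were -0.07 for Lpl (SE 0.43, 95% interval -1.07 to 0.94; edgeR adjusted p = 0.981) and -0.18 for Fabp5 (SE 0.52, 95% interval -1.40 to 1.04; edgeR adjusted p = 0.956). Both were positive without resistant replicate 1, at 0.29 for Lpl and 0.24 for Fabp5, and Lpl was also positive, at 0.18, without sensitive replicate 3. Without resistant replicate 2 they were -0.38 for Lpl and -0.74 for Fabp5.

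Fabp4 (chr3:10204088-10208576, minus strand), the fatty acid-binding protein of adipocytes, which macrophages and capillary endothelium also express, stood apart from Fabp5. It had 124.0, 129.0 and 128.0 CPM in the sensitive libraries and 126.8, 17.3 and 66.4 CPM in the resistant libraries. By CPM the sensitive libraries differed by 1.04-fold, a narrower range than in 99.5% of the 5795 genes compared, and resistant replicate 1 lay among them. After TMM scaling the sensitive libraries were less even, at 0.507, 0.845 and 0.651 log2 units above the gene's mean of the 6 libraries. Resistant replicates 2 and 3 lay below all of them, resistant replicate 2 with 342 counts against 2270 to 2631 in the 3 sensitive libraries. The log2 fold change was -0.96 (SE 0.59, 95% interval -2.36 to 0.44), with an unadjusted p of 0.150 and an adjusted p of 0.940 (edgeR). It was -0.49 without resistant replicate 2 and -1.64 without resistant replicate 1, where the unadjusted p was 0.0278 and the adjusted p 0.973.

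The summed endothelial markers shared with Fabp4 their lowest library but not its low level in resistant replicate 3. The pan-endothelial sum was 366, 226 and 432 CPM in the sensitive and 368, 46.1 and 346 CPM in the resistant libraries, and the LSEC sum was 219, 124 and 358 CPM and 436, 58.4 and 196 CPM in the same order. Both sums were lowest in resistant replicate 2. In resistant replicate 3, where Fabp4 was below all sensitive libraries, both lay within the sensitive range. Single markers differed. Stab2, of the LSEC list, had 111, 83.0 and 128 CPM in the sensitive and 142, 29.1 and 41.5 CPM in the resistant libraries. Its resistant replicates 2 and 3 thus lay below all sensitive libraries, as for Fabp4. The same held for Clec4g (0.809 and 1.20 CPM, lowest sensitive library 1.48 CPM) and Gpr182 (1.315 and 1.77 CPM, lowest sensitive library 2.60 CPM). It also held for Dnase1l3 (5.56 and 6.03 CPM, lowest sensitive library 10.2 CPM), but not for Oit3, Bmp2 and Lyve1. Lyve1, of the same list, had 65.3, 7.67 and 187 CPM and then 253, 8.45 and 129 CPM. It thus made up most of the LSEC sum in resistant replicate 3. The part of endothelial markers in the Fabp4 levels was not tested. Of 5 adipocyte markers, Lep and Adrb3 had a count of 0 in every library, Adipoq had at most 3 counts, and the summed level of the list was 0 to 0.482 CPM. Of the other family members, Fabp7 had 787 to 1078 counts and Fabp3 2 to 33 counts, and Fabp5l2, a near copy of Fabp5, had at most 1 count.

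Plin2 (chr4:86648386-86670060, minus strand), which coats lipid droplets, had 2764, 3799 and 1996 CPM in the sensitive and 1998, 2349 and 2297 CPM in the resistant libraries. It was highest in sensitive replicate 2, and the 3 resistant libraries were within 1.18-fold of each other. The log2 fold change was -0.45 (SE 0.33, 95% interval -1.24 to 0.33; edgeR adjusted p = 0.940), and it was -0.091 without sensitive replicate 2. Plin2 and Cd9 were the only ones of the 10 genes with a wider range among the sensitive than among the resistant libraries.

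Over the 10 genes, 0 had an adjusted p under 0.05 and 0 an unadjusted p under 0.05 in edgeR's quasi-likelihood test. Over all 15474 tested genes, 0% were called by the adjusted p and 3.08% by the unadjusted p (476 genes), with 0.536% higher (83 genes) and 2.54% lower (393 genes) in the resistant group; DESeq2's Wald test called 24 genes by the adjusted p. The groups did not overlap in 0 of the 10 genes, against 8.39% of all tested genes. In direction, 4 of the 10 were fitted higher and 6 lower, with a median log2 fold change of -0.11 beside 0.01 for all tested genes. The intervals were wide, and for Trem2 and Spp1 their upper ends lay at or above a log2 value of 2.00.

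**Figure D2:**
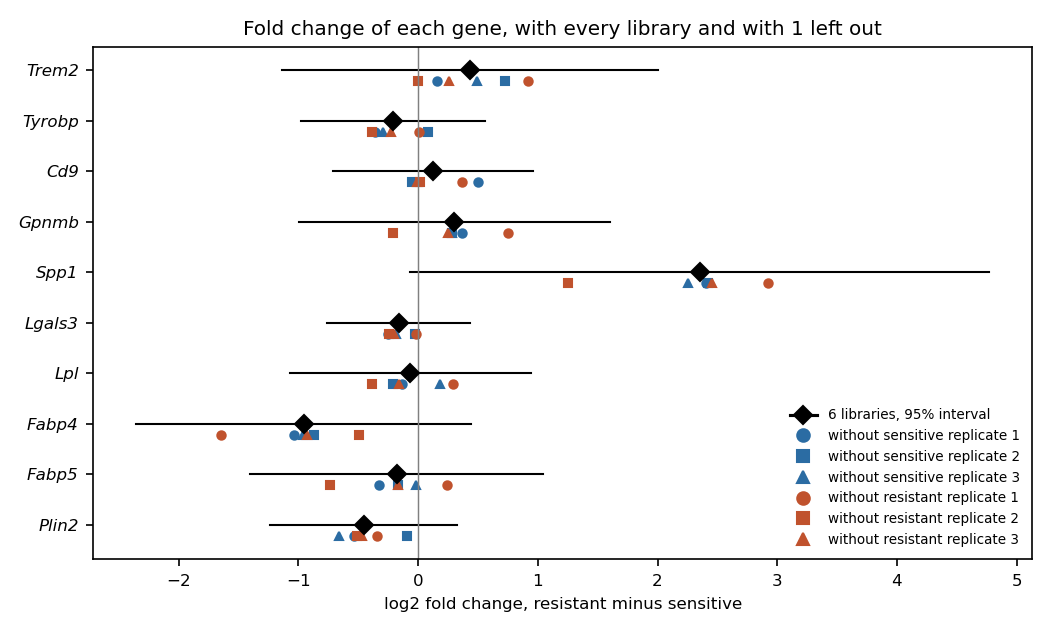
Log2 fold change of each gene, resistant minus sensitive, from edgeR's quasi-likelihood fit, with its 95% interval and the value obtained with each library left out in turn. All 10 intervals include 0, with Spp1 at 2.35 (-0.06 to 4.77) farthest to the right and Fabp4 at -0.96 (-2.36 to 0.44) farthest to the left.

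The order of the libraries was shared by many of the 10 genes. Resistant replicate 1 was lowest of the 6 libraries in 7 of them (Trem2, Tyrobp, Gpnmb, Spp1, Lgals3, Lpl and Fabp5), as it was in 6.4% of all tested genes. Resistant replicate 2 was highest in 5 of them, as it was in 10.3% of tested genes. In 9 of the 10, all except Fabp4, resistant replicates 2 and 3 both lay above replicate 1, an order seen in 28.8% of tested genes. Sensitive replicate 2, the library that stood apart over all genes, was highest in Tyrobp, Lgals3, Fabp4 and Plin2. It was highest in 26% of all tested genes, or 33.1% after TMM scaling. After TMM scaling, resistant replicate 1 was lowest in 9 of the 10 genes, Cd9 and Plin2 being added, beside 9.64% of tested genes, and the 5 genes highest in resistant replicate 2 stood beside 12.9%. These counts of orders were chosen after the values were seen and have no test.

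**Figure D3:**
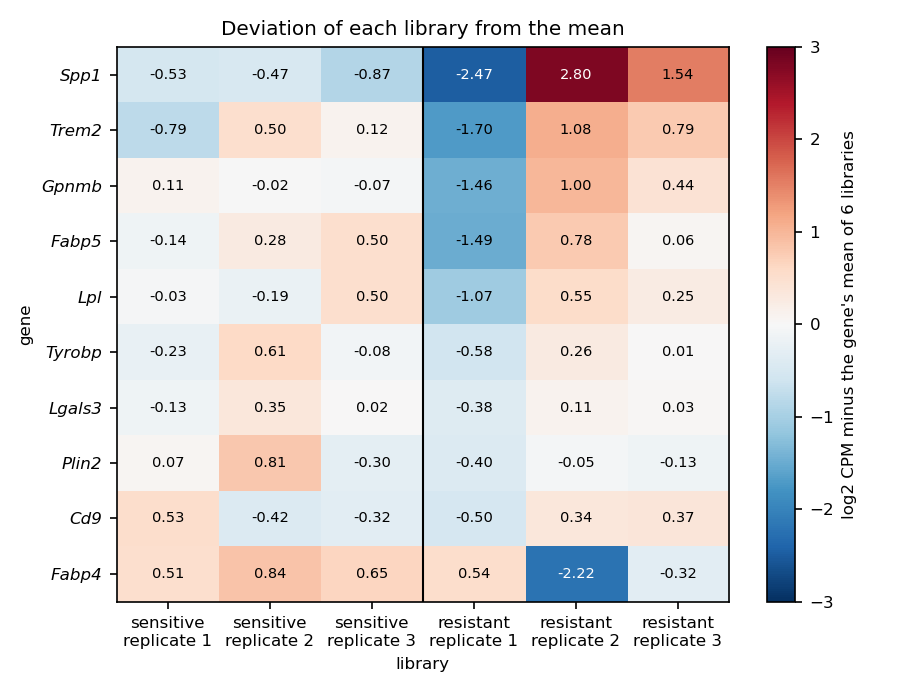
Deviation of TMM-scaled log2 CPM from the gene's mean of the 6 libraries, with genes as rows, libraries as columns and color giving the deviation. On this scale resistant replicate 1 is lowest for 9 of the 10 genes, and Fabp4 runs opposite to Spp1, with its lowest value in resistant replicate 2.

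The spread within groups was unequal. The highest over the lowest CPM among the 3 resistant libraries was 6.35 for Trem2, 5.08 for Gpnmb, 7.33 for Fabp4 and 4.48 for Fabp5, values reached by 0.828%, 1.09%, 0.587% and 1.31% of the 5795 genes compared. Among the sensitive libraries the same ratios were 2.01, 1.33, 1.04 and 1.45. The median gene went the other way, with 1.23 among resistant and 1.79 among sensitive libraries. The range was wider in the resistant group for 8 of the 10 genes and for 17.7% of the 5795 genes. Tyrobp (1.66), Lgals3 (1.30) and Plin2 (1.18) stayed nearer to the median gene in the resistant group.

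**Figure D4:**
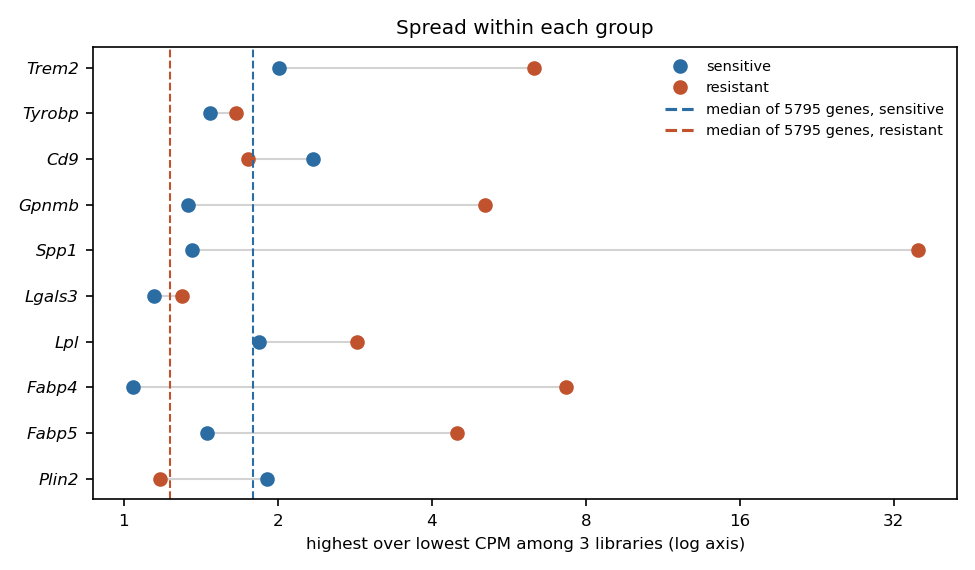
Highest over lowest CPM among the 3 libraries of each group (log axis) for each gene, with the median of 5795 genes for comparison. Spp1 spans 35.7-fold among resistant and 1.36-fold among sensitive libraries, while Plin2 and Cd9 span more among the sensitive libraries.

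Pairs of the 10 genes were compared by the root-mean-square difference of their TMM-scaled log2 deviations over the 6 libraries. The deviations were not scaled by each gene's spread. Genes of small spread therefore lie close to each other even where their library orders differ. The closest pairs were Tyrobp and Lgals3 (0.159), Tyrobp and Plin2 (0.236) and Lgals3 and Plin2 (0.261), the abundant genes of small spread. Lpl and Fabp5 (0.287) and Gpnmb and Fabp5 (0.333) came next. Trem2 was closer to Fabp5 (0.460) and Gpnmb (0.464) than to its adaptor Tyrobp (0.692). The farthest pair was Spp1 and Fabp4 (2.67), and the paralogs Fabp4 and Fabp5 were 1.53 apart.

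Among 5785 other tested genes, the nearest profiles were named in the same way. Syngr1, which encodes a vesicle membrane protein, was nearest to both Trem2 (0.330) and Fabp5 (0.231), and had 29.5, 37.1 and 34.7 CPM in the sensitive and 12.1, 50.9 and 44.5 CPM in the resistant libraries. Lhfpl2 was among the 3 nearest genes of Trem2, Gpnmb and Fabp5, and Lat2, an adaptor of immune receptors, among those of Gpnmb and Fabp5. Hal, the histidine ammonia-lyase, was also near Trem2. For Spp1 the nearest genes were an unannotated locus (0.766), the fatty acid translocase Cd36 (0.846) and the arginase Arg1 (0.913). These distances were larger than for any other of the 10, but Spp1 also deviated most from its own mean. Its root-mean-square deviation was 1.71, beside 0.222 (Lgals3) to 1.06 (Fabp4) for the others. Arg1 had 113.7, 55.9 and 294.5 CPM in the sensitive and 47.6, 612.4 and 380.2 CPM in the resistant libraries.

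The 3 genes nearest to Fabp4 were Esam (0.250), an adhesion molecule of endothelial junctions and platelets, Itgb3 (0.298), an integrin subunit, and Adm (0.307), which encodes the vasoactive peptide adrenomedullin. Esam, also in the pan-endothelial list, had 48.1, 71.0 and 48.6 CPM in the sensitive and 65.5, 10.5 and 31.7 CPM in the resistant libraries. Resistant replicate 2 was lowest here as well, and resistant replicate 3 also lay below all sensitive libraries. Tyrobp lay nearest to Sec11c (0.0669) and Spcs1 (0.0781), subunits of the signal peptidase, and the pseudogene Cd63-ps. Lgals3 lay nearest to Slc25a4 (0.0649), the ribosomal protein gene Rpl31 and the tubulin cofactor Tbca, and Plin2 to Frrs1 (0.0574), Gtf2f2 and the glycolytic enzyme Gpi1. Lpl lay nearest to the linker histone H1f2 (0.157), the heparanase Hpse and Rai14, and Cd9 to the growth factor receptor Fgfr1 (0.182), the hydrolase Abhd2 and the integrin subunit Itga6.

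The level of the 10 genes was also set against macrophage RNA. Their summed CPM was 10212, 10759 and 9161 in the sensitive and 5939, 14138 and 11268 in the resistant libraries, and the resistant mean was 1.04 times the sensitive mean, or 0.857 to 1.27 times with 1 library left out. The sum of 13 macrophage markers was 12571, 14065 and 21007 CPM in the sensitive and 14122, 17921 and 17874 CPM in the resistant libraries. Resistant replicate 1 thus had the lowest sum of the 10 genes, while its macrophage sum lay within the range of the sensitive group. Single macrophage markers differed in their order. Lyz2 had 2203, 1766 and 5196 CPM in the sensitive and 1405, 6488 and 6460 CPM in the resistant libraries, the library order of Trem2 at both ends. C1qa had 1761, 4331 and 3079 CPM and then 2692, 1940 and 1648 CPM, highest of the resistant group in replicate 1. The ratio of the means of the macrophage sum was 1.05.

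Gpnmb was 30.9%, 20.7% and 15.3% of the macrophage sum in the sensitive and 9.28%, 37.2% and 26.0% in the resistant libraries. Spp1 was 0.691%, 0.528% and 0.304% in the sensitive and 0.160%, 4.49% and 1.94% in the resistant libraries, and Trem2 1.15%, 2.07% and 1.20% and then 0.546%, 2.73% and 2.30%. In these 3 genes resistant replicate 1 lay below and resistant replicate 2 above the sensitive group. Resistant replicate 3 lay above it for Spp1 and Trem2 but within it for Gpnmb. The span within the resistant group was 28.1-fold for Spp1, 4.01-fold for Gpnmb and 5.00-fold for Trem2. The ratios of all 10 genes overlapped between groups, and the share of all tested genes with such overlap is not given here. Exact two-sided permutation tests of the mean log2 ratio, 1 for each gene, gave p-values from 0.2 (Fabp4, difference -1.37) to 1.0 (Gpnmb, difference -0.04), where 3 against 3 libraries cannot give a p below 0.1.

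**Figure D5:**
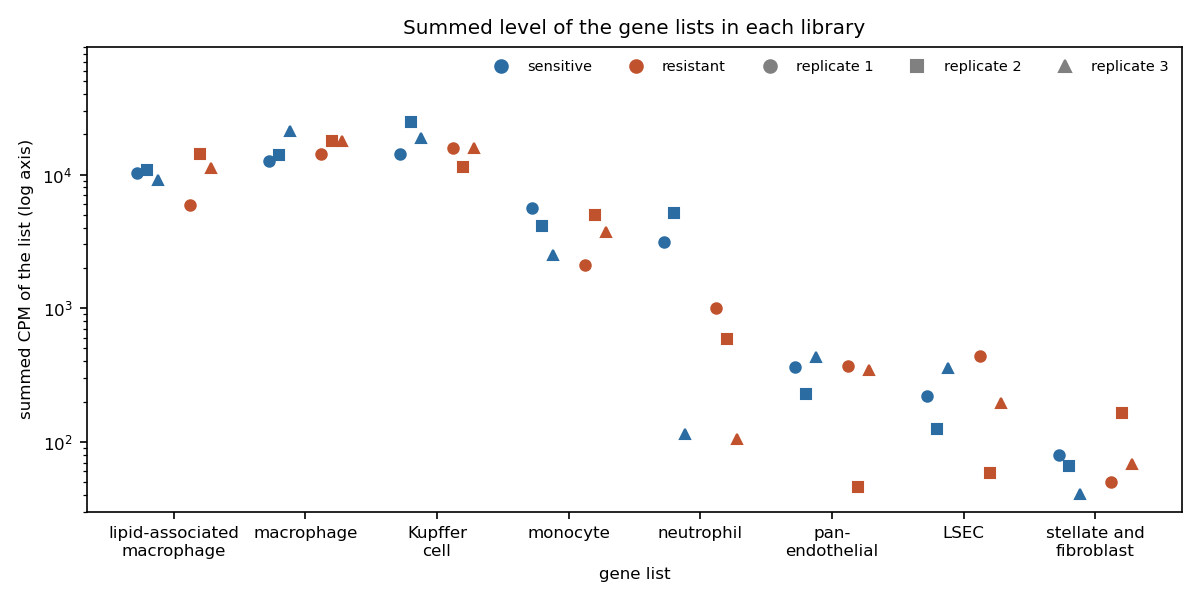
Summed CPM of the 10 genes and of cell type marker lists in each library (log axis), sensitive libraries in blue and resistant libraries in red. The 10 genes sum to 5939 CPM in resistant replicate 1 and 14138 CPM in resistant replicate 2, and the endothelial lists are lowest in resistant replicate 2.

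Markers of other myeloid cells differed in their pattern. The Kupffer cell sum was 14292, 24509 and 18814 CPM in the sensitive and 15842, 11374 and 15841 CPM in the resistant libraries, lowest in resistant replicate 2, where Trem2, Gpnmb and Spp1 were highest. The monocyte sum was 5628, 4106 and 2479 CPM and then 2108, 4940 and 3743 CPM, lowest in resistant replicate 1. The neutrophil sum ranged from 115 to 5178 CPM in the sensitive and from 105 to 1008 CPM in the resistant group. The part of these lists in the levels of the 10 genes was not tested.

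A further 47 genes of the same pathways were read from the same fit, and all 47 were tested. None had an adjusted p under 0.05 in edgeR's quasi-likelihood test, 1 was higher with an unadjusted p under 0.05 and 0 were lower, beside the 0.536% and 2.54% of all tested genes given above. In direction, 24 were fitted higher and 23 lower, with a median log2 fold change of 0.01. The groups did not overlap in 4 of the 47 (Clec7a, Tfe3, Itgav and Itgb3), close to the 8.39% of all tested genes. The library order of Trem2, lowest in resistant replicate 1 and highest in resistant replicate 2, was found in 2 of the 47, the cathepsin Ctsb and the proton pump subunit Atp6v0d2, both named after their values were seen. Atp6v0d2 had 42.8, 37.6 and 24.7 CPM in the sensitive and 8.40, 56.4 and 51.9 CPM in the resistant libraries.

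Of 7 genes of TREM2 and TYROBP signalling, 3 were fitted higher and 4 lower, with a median log2 fold change of -0.03. The largest differences were -0.79 for Hcst, which encodes the adaptor DAP10, -0.68 for Apoe, a lipoprotein ligand of TREM2, and 0.36 for Adam10, the protease that sheds TREM2 (edgeR adjusted p = 0.940 for each). Apoe had 10570, 39460 and 17010 CPM in the sensitive and 12870, 17190 and 15830 CPM in the resistant libraries, so sensitive replicate 2 alone stood high and the other libraries were intermixed.

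Of 16 genes of lipid uptake, storage and release, 8 were fitted higher and 8 lower, with a median of -0.06. Cd36, the fatty acid translocase, had 290, 126 and 228 CPM in the sensitive and 44.1, 531 and 1110 CPM in the resistant libraries, on both sides of the sensitive group as for Spp1. Its log2 fold change was 1.38 (SE 0.93; edgeR adjusted p = 0.940), and without resistant replicate 1 it was 1.93, with an unadjusted p of 0.00396 and an adjusted p of 0.973. The scavenger receptor Msr1 had a log2 fold change of 0.39 and the lysosomal lipase Lipa one of 0.41 (edgeR adjusted p = 0.940 for both).

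Of 12 lysosomal and surface genes of the programme, 6 were fitted higher and 6 lower, with a median of -0.08. Clec7a, the beta-glucan receptor dectin-1, was the gene with an unadjusted p under 0.05, with 131, 116 and 233 CPM in the sensitive and 245, 308 and 289 CPM in the resistant libraries. All 3 resistant libraries lay above all 3 sensitive libraries, and the log2 fold change was 0.76 (SE 0.30; unadjusted p = 0.0395, adjusted p = 0.940, edgeR). The unadjusted p was above 0.05 without sensitive replicate 1 (0.127), sensitive replicate 2 (0.0854), resistant replicate 2 (0.117) or resistant replicate 3 (0.0919). Mmp12, the macrophage elastase, had 96.0, 39.2 and 29.3 CPM and then 60.9, 104 and 397 CPM, with resistant replicate 3 far above the rest and a log2 fold change of 1.75 (SE 0.76; edgeR adjusted p = 0.940). Creg1, a lysosomal glycoprotein, had a log2 fold change of 0.50 with the same adjusted p.

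Of 6 transcription factors, 4 were fitted higher and 2 lower, with a median of 0.09, and the values were 0.56 for Tfec and 0.43 for Tfe3, both of the MiT family, and -0.46 for Nr1h3, the oxysterol receptor LXR-alpha. Of 6 osteopontin receptors, 3 were fitted higher and 3 lower, with a median of -0.13. The integrin subunit Itgav had 87.1, 22.5 and 90.2 CPM in the sensitive and 98.2, 99.99 and 149 CPM in the resistant libraries, with a log2 fold change of 0.78. Its partner Itgb3 had 153, 213 and 157 CPM and then 151, 18.2 and 127 CPM, with a log2 fold change of -0.93. For both genes the groups did not overlap, with the nearest Itgb3 libraries, sensitive replicate 1 and resistant replicate 1, almost equal. Itga9 had a log2 fold change of -0.32, and edgeR's adjusted p was 0.940 for all 6 genes named here.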

How the data were processed

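RNA-seq of LSECs was analysed from 3 sensitive and 3 resistant libraries, grouped by the sample titles. The submitters' processing notes name HISAT2 2.0.5, featureCounts 1.5.0-p3, DESeq2 1.16.1, edgeR and the genome build mm9. The authors deposited whole-number read counts per gene without normalization, and FPKM values that divide these counts by library total and gene length. A deposited table of the authors' own comparison, with group means, log2 fold changes and p-values, was not used. The annotation release is not given in the sources used here. The labels describe ribosomal RNA depletion. Coordinates are of GRCm38 (GENCODE M21), matched by Ensembl identifier: 52083 of 55359 identifiers matched, and 5473 further rows were unannotated loci.

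Counts were fitted in R 4.3.3 with edgeR 4.0.16 (filterByExpr, TMM, robust quasi-likelihood test, two-sided, no covariate), with the Benjamini-Hochberg adjustment taken over all 15474 tested genes and a threshold of 0.05. Standard errors and 95% intervals are those implied by the F statistic. CPM was the count scaled to the library total, without TMM factors, and log2 CPM for profiles was TMM-scaled with a prior count of 2. The procedure was tested on simulated counts that had the same dispersion for every gene. A spread as unequal between genes and libraries as in these data was not simulated. Without molecular identifiers on the reads, counting error gives only the least possible error. Promoter windows came from RefSeq.

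The 10 genes and all lists were chosen with earlier results of these data known. All 10 genes were described in full. Of each related list, up to 3 genes of average log2 CPM at or above 3 were named, by the size of their log2 fold change, and for each of the 10 genes the 3 tested genes (average log2 CPM of at least 5) with the smallest root-mean-square difference in profile. One gene that this rule names is not reported here. Marker lists were given as sums and ranges. Genes outside this rule were named after their values were seen. Other markers named singly were Mcam, Stab2, Clec4g, Gpr182, Dnase1l3, Oit3, Bmp2, Lyve1, Lyz2, C1qa and those at or near 0.

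The alternatives were relative log expression size factors, scaling by library totals only, DESeq2 1.42.0, limma-voom and limma on log2(FPKM + 1) with limma 3.58.1, no filter, at least 10 counts in every library, a replicate block by number, and leaving out 1 library at a time. Figures were made in matplotlib 3.10.9.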

Additional observations from a re-analysis of the deposited data

How the results depend on the processing

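Of 140 fold changes of the 10 genes under other settings, 130 kept their direction and their side of the threshold, 10 changed sign, and 0 passed an adjusted p of 0.05. Of the 10 changes of sign, 9 came with 1 library left out, over ranges of -0.39 to 0.086 for Tyrobp, -0.051 to 0.50 for Cd9, -0.21 to 0.75 for Gpnmb, -0.38 to 0.29 for Lpl and -0.74 to 0.24 for Fabp5, and the other was Gpnmb under limma-voom (-0.0040). Tyrobp was positive without sensitive replicate 2 (0.086) or resistant replicate 1 (0.007). Spp1 stayed between 1.25 and 2.92, and Fabp4 between -1.64 and -0.49, over all alternatives.

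Of the 10 genes, 1 had an unadjusted p under 0.05 with library totals alone (Spp1) and 1 with DESeq2 (Spp1), and 0 to 3 with 1 library left out, the 3 being Spp1, Gpnmb and Fabp4 without resistant replicate 1. Of the 47 related genes the count was 1, with 2 under DESeq2 (Clec7a and Mmp12), 2 with the replicate block (Clec7a and Tfec) and 0 to 5 with 1 library left out (0 without sensitive replicate 2 or resistant replicate 3, 5 without resistant replicate 1: Cd36, Clec7a, Hcst, Itga9 and Mmp12). Over all genes the count was 628 without resistant replicate 1 and 381 with library totals alone. It was 476 in the main fit, or 3.08% of 15474 tested genes. Ratios to the macrophage sum that did not overlap between groups numbered 0, and 0 to 4 with 1 library left out (4 without sensitive replicate 3, 3 without resistant replicate 1). Leaving out a library reduces the values that can overlap. The share of all tested genes is not given for these ratios, so the counts have nothing to be set against.

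Over all genes, calls by the adjusted p numbered 0 with edgeR, 24 with DESeq2 and 2 without the filter. Calls by the unadjusted p numbered 476, with 732 under DESeq2, 2036 without the filter, 467 with the replicate block and 167 to 1056 with 1 library left out (167 without resistant replicate 3, 245 without resistant replicate 2, 1056 without sensitive replicate 3). The cause of these shifts was not tested. Same-numbered libraries had deviation correlations of -0.0009, 0.034 and 0.19, so the numbers were not taken as pairs, and the replicate block changed no call of the 10 genes. Depth did not limit the 10 genes, which had at least 342 counts, while 3 libraries per group left intervals as wide as -0.06 to 4.77 for Spp1.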
